A study of Mus musculus with 14 samples.

Results

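The Dppa genes, short for developmental pluripotency associated, were described across a mouse differentiation course from embryonic stem cells (ESCs) to extraembryonic endoderm stem (XEN) cells, with and without the transcription factor Zfp281. The members were taken by gene symbol: Dppa2, Dppa3, Dppa4 and Dppa5a, 4 of the 23174 rows of the deposited expression table. Of 5 rows with a symbol that starts with Dppa, the other, Dppa1, is listed at 0 in all 14 libraries. In the coordinates of the table, for which the submitters' processing notes name the build mm9, Dppa4 (XLOC_007641) lies on chromosome 16 from 48283848 to 48294405. Dppa2 (XLOC_007642) follows it from 48310387 to 48319626, with a gap of 15981 bp between the gene models. Dppa3 (XLOC_016793) lies on chromosome 6 from 122576442 to 122580289, and Dppa5a (XLOC_021835) on chromosome 9 from 78214861 to 78216006.

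The shared name does not mark a single protein family. Dppa2 and Dppa4 are related proteins with a SAP domain that bind DNA together, and they are known as activators of Dux and of the genes expressed in the 2-cell embryo, and as factors that keep developmental promoters with opposing histone marks free of DNA methylation. Dppa3, also called Stella or PGC7, is a factor of oocytes and primordial germ cells that restrains UHRF1, the protein that brings the maintenance methyltransferase DNMT1 to newly copied DNA. Dppa5a, also called ESG1, is a KH-domain protein that binds RNA, and it is among the messages that are very abundant in ESCs; its relatives Ooep and Khdc3 belong to the subcortical complex of the oocyte. In the embryo these genes mark the pluripotent epiblast or the germ line, and extraembryonic endoderm, the source of the yolk sac, is not known for them.

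Polyadenylated RNA was sequenced from 4 ESC lines at 3 stages and from 2 established XEN lines. The course lines were 3WT, which is wild type, 3.34Null and 2.6Null, which lack Zfp281, and 3.34Null-Rescue, the 3.34Null line with Zfp281 put back. All are of 129S1/SVImJ background, as is XEN5, while XENB1 is labelled 129S1, and both XEN lines are labelled wild type. Stage ESC is passage 0, grown without feeders on gelatin in serum with LIF. At cXENp1, which is passage 1, the cells had been moved to XEN medium and given 10 ng/mL of activin A and 0.01 µM of all-trans retinoic acid for 48 h. At cXENp3, which is passage 3, they were sampled after growth on mouse fibroblast feeders at the intervening passage and a return to gelatin. Each line gave 1 library per stage, so each genotype other than the knockout is represented by a single line. For stages of the course, p-values measure how the change within a line varied between lines. For genotypes, they measure the spread within pairs of lines, pooled over stages. That pooling treats the libraries of a line at different stages as independent. 3WT and 3.34Null-Rescue together are called Zfp281-present lines below.

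Zfp281 had 25.1 to 38.6 FPKM (sequenced fragments per unit of transcript length and of library size) in the 6 Zfp281-present libraries, at most 0.559 FPKM in 2.6Null and 1.29 to 3.96 FPKM in 3.34Null. Library sums ran from 424406 FPKM in 3WT at cXENp1 to 718138 FPKM in 3.34Null-Rescue ESCs, and the depth is unknown because the table holds no counts. Library descriptions start with JH in 3 ESC libraries and with XH in the other 11, so this prefix follows the ESC stage in all lines but 2.6Null. The summed level of 16 XEN and primitive endoderm genes was 615 FPKM in 2.6Null ESCs against 154 to 162 FPKM in the other ESC libraries, and 3378 FPKM against 388 to 516 FPKM at cXENp1. At cXENp3 it was 249 FPKM for 3WT, 808 FPKM for 3.34Null-Rescue, 4105 FPKM for 3.34Null and 2932 FPKM for 2.6Null. Of those 16 genes 5 (Lama1, Lamc1, Col4a1, Col4a2 and Sparc) are at 0 in the XEN lines and in each cXENp3 library of the KO lines, so a 0 in this table is not read as absence. Summed levels of 10 feeder fibroblast genes at cXENp3 were 36.2 FPKM for 3WT, 1287 FPKM for 3.34Null-Rescue, 305 FPKM for 3.34Null and 397 FPKM for 2.6Null, against 5.16 to 18.1 FPKM in ESCs. The same sums were 19.0 to 79.8 FPKM at cXENp1, before the passage on feeders, with 3WT the highest, and 562 to 648 FPKM in the XEN lines. Whether this RNA came from feeders was not tested. In these bulk samples, fewer cells that express a gene and less of its RNA per cell cannot be told apart.

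**Figure D1:**
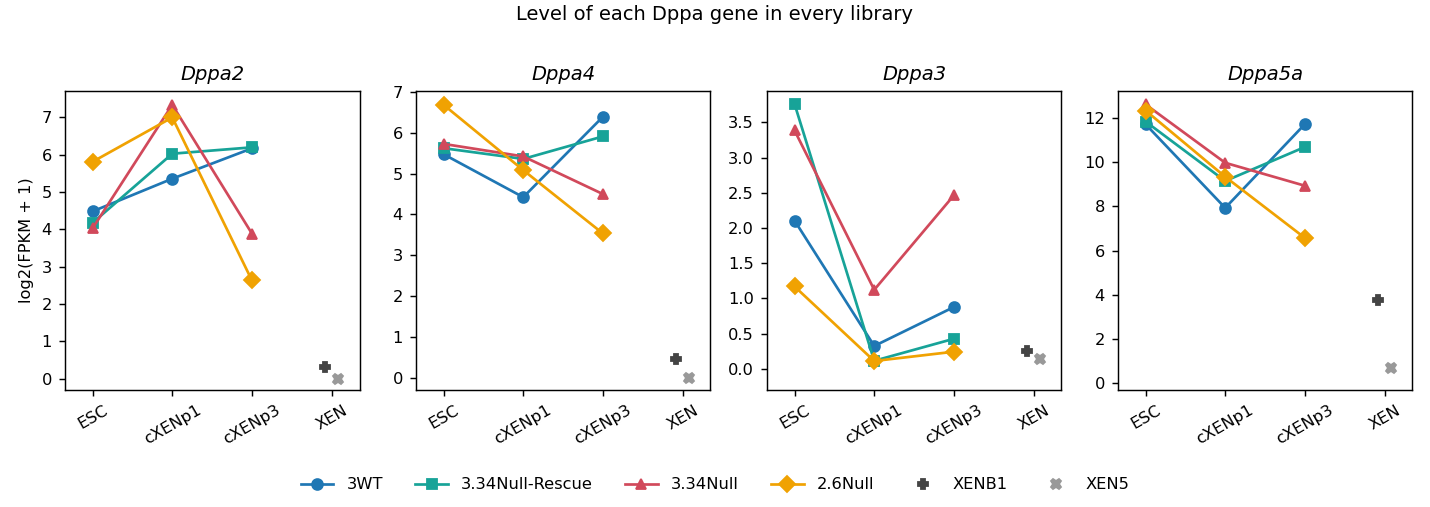
Level of each Dppa gene, as log2(FPKM + 1), in every library, by stage; lines join the 3 stages of a course line, and the grey symbols are the XEN lines. At cXENp3 the KO lines lie below 3WT and 3.34Null-Rescue for Dppa2, Dppa4 and Dppa5a, and the vertical scales differ between panels.

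The 4 genes spanned very different levels in undifferentiated cells. Dppa5a had 3342 FPKM for 3WT, 3639 for 3.34Null-Rescue, 6225 for 3.34Null and 5136 for 2.6Null, which placed it between rank 6 and rank 33 of all genes in its library. Dppa4 followed with 43.5 to 102 FPKM, Dppa2 with 15.3 to 55.1 FPKM and Dppa3 with 1.25 to 12.6 FPKM. FPKM is scaled to transcript length, so these levels can be set beside each other. The order was the same in each of the 4 ESC libraries, with no overlap between Dppa5a and the rest or between Dppa3 and the rest, while the ranges of Dppa4 and Dppa2 overlapped across lines.

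Dppa2, the SAP-domain protein that pairs with Dppa4, had 21.3 FPKM for 3WT, 17.1 for 3.34Null-Rescue, 15.3 for 3.34Null and 55.1 for 2.6Null at the ESC stage. At cXENp1 the same lines had 40.0, 64.1, 160.2 and 127 FPKM. Every line was higher at cXENp1 than in its own ESCs, by 1.87, 3.76, 10.5 and 2.30 times, and the highest ESC value, that of 2.6Null, lay above the lowest cXENp1 value, that of 3WT. The fitted difference was 1.80 on the log2(FPKM + 1) scale (SE 0.85), with a limma adjusted p of 0.136, above the threshold of 0.05. With line as a block, the SE reflects how changes differed between lines, pooled over all 3 stages. Changes from ESC within a line ran from 0.88 to 3.31 at cXENp1 and from -3.18 to 2.02 at cXENp3. The fitted difference reached 2.35 (adjusted p 0.0485) with every library scaled to the same sum, a scaling that also moved the median of all genes from 0 to 0.46. With the prefix as a term it was -0.14, since that fit takes the change from ESC to both later stages from 2.6Null alone, whose Dppa2 was 2.30 times its ESC level at cXENp1 and 9.44% of it at cXENp3.

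Dppa4, the partner of Dppa2, had 43.5 FPKM for 3WT, 48.4 for 3.34Null-Rescue, 52.1 for 3.34Null and 102 for 2.6Null as ESCs, and 20.5, 40.1, 41.9 and 33.0 FPKM at cXENp1. All 4 lines were lower at cXENp1, at 47.0%, 83.0%, 80.5% and 32.3% of their ESC level, and the 2 stages did not overlap. The fitted difference was -0.81 (SE 0.58, limma adjusted p 0.319), with the spread pooled over the stages in the same way, and did not pass the threshold. The neighbouring genes thus had changes of opposite sign within every line.

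The ratio of Dppa2 to Dppa4 FPKM makes this visible without any scaling between libraries. It was 0.490 for 3WT, 0.353 for 3.34Null-Rescue, 0.294 for 3.34Null and 0.539 for 2.6Null at the ESC stage. At cXENp1 it was 1.95, 1.60, 3.82 and 3.84 in the same order. Dppa4 was the more abundant message in all 4 ESC libraries and Dppa2 in all 4 cXENp1 libraries, and the KO lines had the higher ratios at cXENp1. At cXENp3 the ratio was 0.853, 1.22, 0.637 and 0.491, so that only 3.34Null-Rescue still had more Dppa2 than Dppa4. The ratio was chosen after its values were seen and is given with no test.

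Genes of the 2-cell-like state, which Dppa2 and Dppa4 are known to activate through Dux, were taken from a list of 24. Of the 22 in the table, 17 were higher at cXENp1 than in ESCs of the same line in all 4 lines, and 2 are listed at 0 in every library of both stages. How many of all genes rose in this way was not counted, so the 17 are not read as an excess. The filter on low values left 17 for the fit, of which 12 passed it only through their cXENp1 libraries, so a rise was largely fixed for those and no count of calls is given for the list. The summed level of Zscan4a to Zscan4f, zinc finger genes of the 2-cell embryo, was listed at 0 in 3WT ESCs, and the ESCs of 3.34Null-Rescue had 0.0438 FPKM, those of 3.34Null 0.380 and those of 2.6Null 3.86. At cXENp1 it was 205, 89.5, 373 and 214 FPKM in that order, above every ESC library. At cXENp3 it was 5.57, 36.9, 3.40 and 0.490 FPKM. Zscan4 copies are near-identical and share reads, so the single genes are uncertain and the sum is given. Dux itself was at most 1.10 FPKM, in 3.34Null at cXENp1, the 1 course library in which it passed 1 FPKM, so it was not tested. The Zscan4 sum was higher at cXENp1 in all 4 lines, 2.6Null with its single prefix included, as was Dppa2, whereas Dppa4 was lower there; whether these changes are related was not tested.

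**Figure D2:**
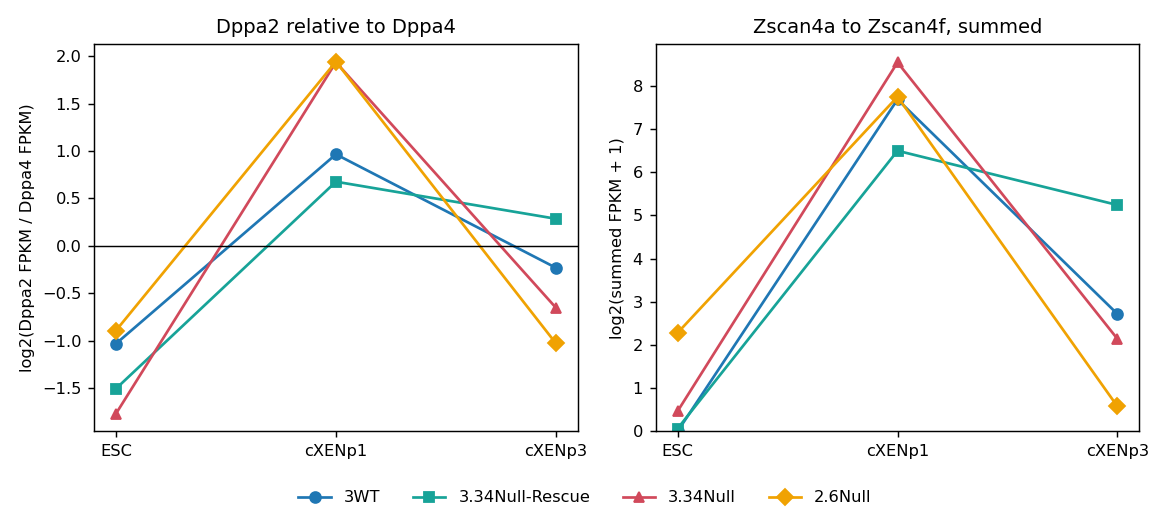
Left, log2 of the ratio of Dppa2 to Dppa4 FPKM; right, log2 of the summed FPKM of Zscan4a to Zscan4f plus 1, for the 4 course lines at 3 stages. Both are highest at cXENp1 in every line, where the ratio was 1.60 to 3.84.

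Dppa3, the oocyte and germ cell factor, was the scarcest member. ESCs had 3.30 FPKM for 3WT, 12.6 for 3.34Null-Rescue, 9.45 for 3.34Null and 1.25 for 2.6Null. At cXENp1 it had 0.252, 0.0818, 1.18 and 0.0798 FPKM, so all 4 values lay below all ESC values, with 3.34Null at cXENp1 close to 2.6Null ESCs. It fell by 2.19 on the log2(FPKM + 1) scale (SE 0.42, limma adjusted p 0.0062). Only 6 of the 14 libraries reached 1 FPKM, and the added pseudocount of 1 understates its change: with a pseudocount of 0.1 the difference was -3.80.

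Dppa5a, the abundant KH-domain message, had 242 FPKM for 3WT, 563 for 3.34Null-Rescue, 997 for 3.34Null and 643 for 2.6Null at cXENp1. These were 7.24%, 15.5%, 16.0% and 12.5% of the ESC levels given above, and no cXENp1 library reached any ESC library. Dppa5a fell by 3.03 (SE 0.91, limma adjusted p 0.0347). It nevertheless remained between rank 84 and rank 210 of all genes in its library. Among its relatives, Ooep fell by 3.09 (limma adjusted p 0.0382) and Khdc3 also fell (adjusted p 0.0148). They were the 2 of 5 tested genes of the oocyte subcortical and KH-domain list that fell, while 0 rose, beside 13.8% of all genes lower.

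Over the set, 2 of 4 members fell and 0 rose at cXENp1 against ESC, where 28.5% of all 13191 genes tested were called. The members' median log2 difference was -1.50 beside 0 over all genes. Of 20 core and naive pluripotency genes tested in the same fit, 18 fell and 0 rose, with a median of -4.39. Nanog, a core pluripotency factor, changed by -5.80, so its level at cXENp1 was 0.862% to 1.89% of that in ESCs, while Dppa4 kept 32.3% or more and Dppa2 exceeded its ESC level in the same libraries. The call of Dppa5a was lost without 3.34Null (adjusted p 0.112), without 3.34Null-Rescue (0.107), with quantile normalization (-2.16, adjusted p 0.0954) and with the filter set to any value above 0 (0.0633). Neither call held with the prefix as a term, where Dppa3 differed by -1.29 (SE 0.71, adjusted p 0.239) and Dppa5a by -4.57 (SE 1.62, adjusted p 0.116). Library batch, if the prefix marks one, and stage cannot be told apart in the other 3 lines; within 2.6Null, which has 1 prefix, Dppa3 at cXENp1 was 0.0798 against 1.25 FPKM and Dppa5a 643 against 5136 FPKM.

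**Figure D3:**
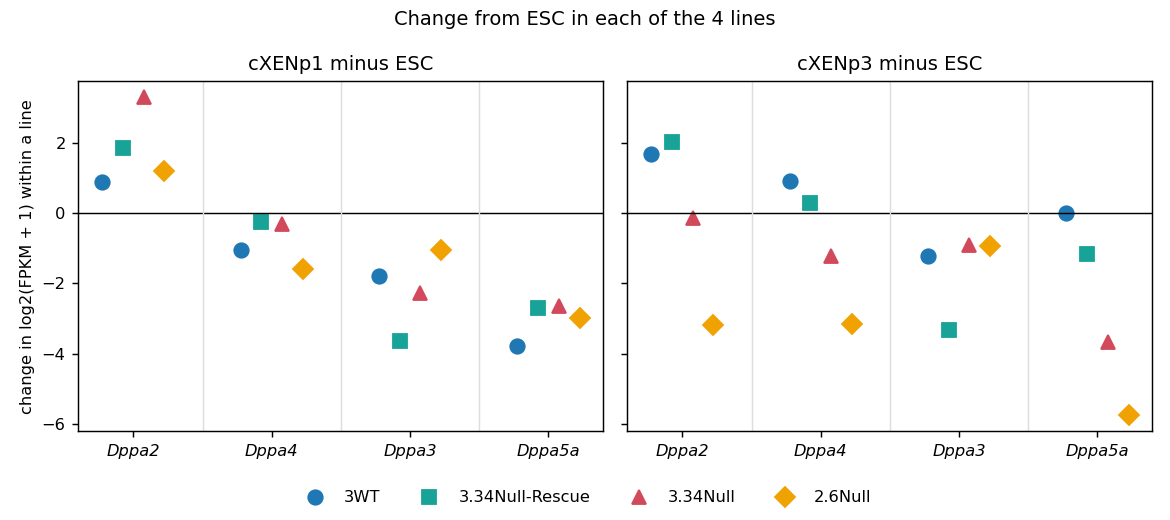
Change from ESC in log2(FPKM + 1) within each of the 4 lines, at cXENp1 (left) and cXENp3 (right), for each Dppa gene. At cXENp1 the 4 lines lie on the same side of 0 for each gene; at cXENp3 they part for Dppa2 and Dppa4, with 3WT and 3.34Null-Rescue above 0 and both KO lines below it.

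By cXENp3 the lines had parted by genotype. Dppa2 had 71.0 FPKM in 3WT and 72.3 in 3.34Null-Rescue, while 3.34Null had 13.8 and 2.6Null had 5.20. These were 333% and 424% of the ESC level in the Zfp281-present lines, and 90.0% and 9.44% in the KO lines. Dppa4 had 83.2, 59.3, 21.6 and 10.6 FPKM in the same order, or 191%, 123%, 41.5% and 10.4% of ESC. Dppa5a had 3353, 1637, 486 and 93.9 FPKM, or 100.3%, 45.0%, 7.80% and 1.83% of ESC. For these 3 genes the Zfp281-present libraries did not overlap with the KO libraries, and 2.6Null was the lowest of the 4. How many of all genes separated by genotype in this way, at this or another stage, was not counted. Such separations are therefore not read as particular to the members.

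KO lines were compared with Zfp281-present lines at this stage to ask which members depended on genotype. The KO difference on the log2 scale was -2.92 for Dppa2 (SE 0.54, limma adjusted p 0.00273), -2.14 for Dppa4 (SE 0.42, adjusted p 0.00368) and -3.45 for Dppa5a (SE 0.68, adjusted p 0.00376). Dppa3 differed by 0.70 (SE 0.86, adjusted p 0.537), with 0.837 FPKM for 3WT, 0.344 for 3.34Null-Rescue, 4.52 for 3.34Null and 0.183 for 2.6Null. The KO lines thus held both the highest and the lowest Dppa3 value at cXENp3, and its groups overlapped. Of the 4 members 3 were lower and 0 higher, where 41.9% of all genes tested were called, and the members' median was -2.53 beside 0.01 over all genes. The 3 calls were lost without 3WT, with adjusted p of 0.0600 for Dppa2, 0.0696 for Dppa4 and 0.0780 for Dppa5a, and the number of all genes called then dropped from 5528 to 1057. They held with the prefix as a term, but all cXENp1 and cXENp3 libraries share the prefix XH. That term could therefore change the spread but not these differences.

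In ESCs no member had a genotype difference that passed the threshold. The KO difference was 0.59 (adjusted p 0.599) for Dppa2, 0.66 (0.411) for Dppa4, -0.66 (0.738) for Dppa3 and 0.70 (0.631) for Dppa5a. In limma 0 of 4 members were called at this stage, where 1.97% of all genes were called and 2762 had an unadjusted p under 0.05. Both KO lines nevertheless had more Dppa4 and more Dppa5a than either Zfp281-present line. 2.6Null ESCs, the library with the raised XEN gene sum, also had the highest Dppa2 and the lowest Dppa3 of the 4. Among the ESC libraries it is also the only one with the prefix XH, so line and prefix cannot be told apart here. Without 3.34Null the KO difference in Dppa2 was 1.48, and without 2.6Null it was -0.30.

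At cXENp1 the KO difference was 1.47 (SE 0.54, adjusted p 0.337) for Dppa2, with 160.2 and 127 FPKM in the KO lines against 40.0 and 64.1 FPKM. It was 0.36 (adjusted p 0.836) for Dppa4, 0.40 (0.931) for Dppa3 and 1.11 (0.605) for Dppa5a. No member was called by limma here, where 0.485% of all genes were called and 1486 had an unadjusted p under 0.05; Dppa2 had an unadjusted p of 0.0217. For Dppa2 and Dppa5a both KO lines stood above both Zfp281-present lines at cXENp1 and below them at cXENp3.

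**Figure D4:**
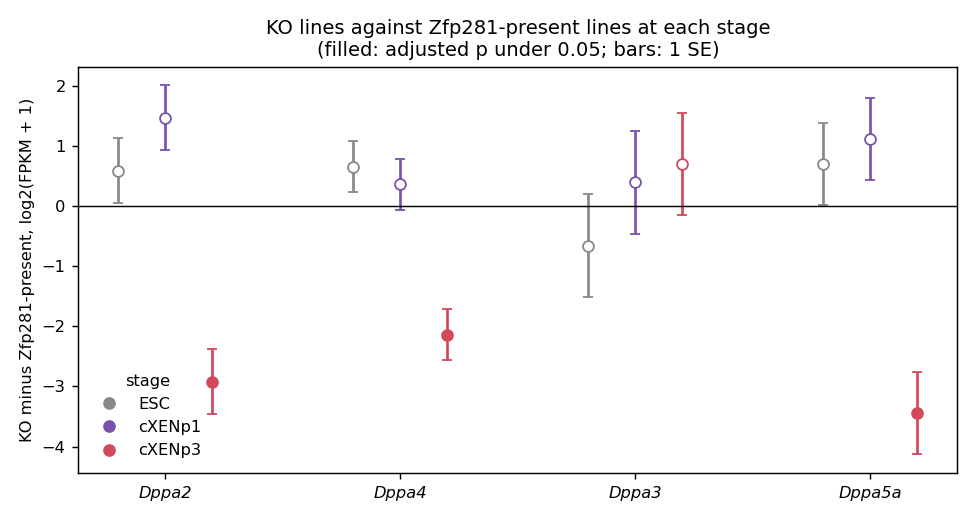
Fitted difference of KO from Zfp281-present lines in log2(FPKM + 1) for each Dppa gene at ESC (grey), cXENp1 (purple) and cXENp3 (red), with bars of 1 SE; filled points have a limma adjusted p under 0.05. Filled points are those of Dppa2, Dppa4 and Dppa5a at cXENp3, between -3.45 and -2.14.

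Whether the genotype difference at cXENp3 departed from that in ESCs was tested as an interaction of Zfp281 with stage. It was -3.51 (SE 0.77, limma adjusted p 0.0135) for Dppa2, -2.80 (SE 0.60, adjusted p 0.0125) for Dppa4 and -4.14 (SE 0.97, adjusted p 0.0172) for Dppa5a. Dppa3 had an interaction of 1.36 (SE 1.21, adjusted p 0.444). Of the 4 members 3 were called and all 3 were negative, where 22.6% of all genes were called. With each line as a block the adjusted p was 0.0240, 0.0214 and 0.0154 for those 3 genes, so no call changed. None of the 3 was called without 3WT or without 3.34Null-Rescue, and only Dppa2 without 2.6Null; without 3WT only 1 gene of all tested was called. The interaction at cXENp1 was 0.88 (adjusted p 0.677) for Dppa2, -0.30 (0.879) for Dppa4, 1.05 (0.766) for Dppa3 and 0.42 (0.898) for Dppa5a. Thus 0 of 4 were called there, where 0.0379% of all genes were called and 1555 had an unadjusted p under 0.05.

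Within the KO lines, cXENp3 was compared with ESC by line. Dppa5a changed by -4.72 (SE 0.60, limma adjusted p 0.000843), Dppa4 by -2.19 (SE 0.46, adjusted p 0.00575) and Dppa2 by -1.66 (SE 0.60, adjusted p 0.0489), so these 3 fell, while Dppa3 differed by -0.92 (adjusted p 0.173). The count of 3 of 4 stands beside 48.3% of all genes called. Dppa2 rested on 2.6Null: without that line its difference was -0.14 (adjusted p 0.793), and Dppa4 then had an adjusted p of 0.0949, which left Dppa5a as the 1 member called. The call of Dppa2 was also lost without 3WT (0.0790) and without 3.34Null-Rescue (0.0801), which supply part of the shared spread, and with any value above 0 (0.101), eBayes without trend (0.0546) and equal library sums (0.0958), so 6 of its 12 alternatives ended it.

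Within the Zfp281-present lines the same comparison gave 1.85 (adjusted p 0.166) for Dppa2, 0.60 (0.510) for Dppa4, -2.28 (0.0883) for Dppa3 and -0.57 (0.648) for Dppa5a. In limma 0 of 4 members were called where 1.14% of all genes were called, and 2527 genes had an unadjusted p under 0.05. Dppa2 was called without 2.6Null and without 3.34Null, and Dppa3 without 3WT. In 3WT and 3.34Null-Rescue, Dppa3 at cXENp3 was 25.3% and 2.74% of its ESC level, the lowest share of the 4 members in each of these lines. In 3.34Null it was 47.8%, above the 41.5% of Dppa4 and the 7.80% of Dppa5a.

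Over all 4 lines, which mixes the opposing genotypes, Dppa3 fell by 1.60 at cXENp3 against ESC (SE 0.42, limma adjusted p 0.0455). Dppa2 differed by 0.10 (adjusted p 0.947), Dppa4 by -0.79 (0.348) and Dppa5a by -2.65 (0.0813). Thus 1 of 4 members was called where 9.35% of all genes were called. That call had an adjusted p of 0.101 with no replicate block, 0.0781 with any value above 0 and 0.515 with the prefix as a term, and it was lost when any of the 4 lines was left out, although without 3WT Dppa5a was called in its place. From cXENp1 to cXENp3, 0 of 4 members were called, with differences of -1.71 (adjusted p 0.268) for Dppa2, 0.01 (0.993) for Dppa4, 0.59 (0.459) for Dppa3 and 0.38 (0.859) for Dppa5a, where 7.45% of all genes were called and 3051 had an unadjusted p under 0.05. Within lines, all of Dppa2, Dppa4 and Dppa5a were higher at cXENp3 than at cXENp1 in 3WT and 3.34Null-Rescue and lower in both KO lines.

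The established XEN lines served as the endpoint. XENB1 had 0.255 FPKM of Dppa2, 0.374 of Dppa4, 0.187 of Dppa3 and 12.4 of Dppa5a. XEN5 had 0.0971 FPKM of Dppa3 and 0.591 of Dppa5a, and both Dppa2 and Dppa4 are listed at 0 in it. Each member was below all 4 ESC libraries in both XEN lines. The fitted differences from ESC were -9.91 (SE 0.73, limma adjusted p 5.95e-05) for Dppa5a, -5.65 (SE 0.37, 3.49e-05) for Dppa4, -4.46 (SE 0.49, 0.000371) for Dppa2 and -2.41 (SE 0.68, 0.0227) for Dppa3. All 4 members were lower, where 41.9% of the 12372 genes tested were called, with a median of -5.06 beside -0.02 over all genes. Both XEN libraries have the prefix XH, while 3 of the 4 ESC libraries have JH, and no prefix term was fitted here. Library batch, if the prefix marks one, was thus not separated from this difference. In 2.6Null, the ESC library with XH, Dppa2 was at 55.1 FPKM, Dppa4 at 102 FPKM and Dppa5a at 5136 FPKM. Dppa3 was at 1.25 FPKM there and was the only member with its lowest ESC value in that library. The call of Dppa3 was lost without 3.34Null (adjusted p 0.0596), without XEN5 (0.124), without XENB1 (0.110) and with any value above 0 (0.0543).

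KO lines at cXENp3 were set against the XEN lines to see how far their Dppa levels had come. Dppa5a was still higher in KO cXENp3 cells by 5.54 (SE 0.92, limma adjusted p 0.0097), Dppa4 by 3.79 (SE 0.42, adjusted p 0.000835) and Dppa2 by 3.10 (SE 0.52, adjusted p 0.0103), while Dppa3 differed by 1.16 (adjusted p 0.460). So 3 of 4 members were higher, where 4.12% of 13386 genes were called, and the median over the members was 3.44 beside 0.04 over all genes. The lowest KO value of Dppa5a, 93.9 FPKM in 2.6Null, stood against 12.4 FPKM in XENB1, and the lowest of Dppa4, 10.6 FPKM, against 0.374 FPKM. Of the 20 pluripotency genes 5 were higher and 1 lower in the same comparison, and of the 11 XEN genes that are not at 0 in both groups 0 were called. Without 3WT or without 3.34Null-Rescue, which supply part of the shared spread, only Dppa4 was called; Dppa5a was lost without 3.34Null and Dppa2 without XEN5.

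Genes of the pathways the members act in were read in the comparison of KO with Zfp281-present lines at cXENp3, where 41.9% of all genes were called, 22.9% higher and 19.0% lower. Of 20 pluripotency genes 17 were lower in KO and 0 higher, with a median of -3.23 beside 0.01 over all genes. Of 8 genes of DNA methylation and demethylation 5 were lower and 1 higher. The lower ones include Uhrf1, the protein Dppa3 restrains, at -1.50 (adjusted p 0.0217), Dnmt1 at -0.86 (adjusted p 0.0423) and Tet1, a 5-methylcytosine oxidase, at -2.23 (adjusted p 0.0111); the higher one was Tet3 at 2.39 (adjusted p 0.000241). Uhrf1 had 168 FPKM for 3WT, 101 for 3.34Null-Rescue, 80.5 for 3.34Null and 25.6 for 2.6Null at cXENp3. Dppa3 RNA did not follow that order, but RNA levels do not measure restraint of the UHRF1 protein, so a link was not tested.

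Germ cell genes were read in the same comparison. Of 13 germline genes that DNA methylation is known to silence, 8 were lower in KO and 0 higher, with a median of -0.99, beside 19.0% of all genes lower. Ddx4, an RNA helicase of germ cells, differed by -2.47 (adjusted p 0.00181) and Mael, a factor of the piRNA pathway, by -2.38 (adjusted p 0.00139). At cXENp1 against ESC, 6 of the same 13 had risen and 0 had fallen, beside 14.7% of all genes higher, among them Taf7l by 2.30 (adjusted p 0.000635) and Slc25a31 by 1.84 (adjusted p 0.00236). Of the 13, 1 passed the filter on low values only through its cXENp1 libraries, so a rise was largely fixed for that gene. Of 7 primordial germ cell genes 5 were lower in KO at cXENp3 and 0 higher, including Dnd1 at -2.19 (adjusted p 0.000644) and Prdm14 at -3.39 (adjusted p 0.000308). Of 5 oocyte subcortical and KH-domain genes tested, 3 were lower and 0 higher: Khdc3 at -3.92 (adjusted p 0.00155), Ooep at -3.10 (adjusted p 0.00297) and Tle6 at -1.22 (adjusted p 0.00525). Khdc3 had already been low in KO ESCs, at 1.56 FPKM (3.34Null) and 6.16 FPKM (2.6Null), while 3WT had 35.7 and 3.34Null-Rescue 30.9 FPKM.

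Markers of other cells were read at the same stage, again beside 41.9% of all genes called. Of 16 XEN genes 10 were higher in KO and 4 lower, the lower ones being among the 5 listed at 0. Of 8 trophoblast genes 3 were higher and 1 lower, a share near that of all genes, with the keratins Krt8 at 5.08 (adjusted p 0.000177) and Krt18 at 3.95 (adjusted p 0.000222), which simple epithelia share. Of 8 primed epiblast genes 1 was higher and 4 were lower. Of 10 feeder fibroblast genes 1 was higher and 0 lower; Lum is at 0 in the 3WT library, and no other of the 10 is at 0 in a cXENp3 library. The feeder sums given above for cXENp3 were highest in 3.34Null-Rescue and lowest in 3WT, the 2 lines with the most Dppa2, Dppa4 and Dppa5a at this stage. The part of feeder RNA in the members' differences was not tested.

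Surrounding genes were compared with each member, taking every row of the table within 100 kb. Around Dppa2 and Dppa4 the window holds no other tested gene; Gm5485, near Dppa2, is listed at 0 in every library. The Dppa3 window holds 6 rows, of which 5 were tested. Nanog, 77296 bp from Dppa3, differed between KO and Zfp281-present lines at cXENp3 by -4.82 (adjusted p 0.0021), and Gdf3, a TGF-beta family ligand 16352 bp away on the other side, by -3.05 (adjusted p 0.00758). Nanog at cXENp3 was 117% of its ESC level for 3WT, 81.5% for 3.34Null-Rescue, 8.88% for 3.34Null and 0.631% for 2.6Null, and Gdf3 was at 190%, 164%, 37.7% and 2.89%. Dppa3, which lies between them, was at 25.3%, 2.74%, 47.8% and 14.7%. It was the gene of the 3 that stayed below its ESC level in both Zfp281-present lines.

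Apobec1, a cytidine deaminase 23979 bp from Dppa3, was also below ESC in all 4 lines at cXENp3, at 58.0%, 39.6%, 23.3% and 45.2%, and did not differ by genotype beyond the spread (-0.40, adjusted p 0.362). The glucose transporter gene Slc2a3 differed by -0.27 (adjusted p 0.716), and Mfap5, a microfibril gene, was higher in KO by 1.22 (adjusted p 0.0196). Around Dppa5a, 4 of 9 rows were tested. Ooep, 8703 bp away, had 65.4 FPKM for 3WT, 45.2 for 3.34Null-Rescue, 11.5 for 3.34Null and 2.36 for 2.6Null at cXENp3. Ddx43, a helicase gene 27577 bp away, had 7.45, 7.60, 1.31 and 0.565 FPKM, and differed by -2.17 (adjusted p 0.00095). Mb21d1, the DNA sensor cGAS, differed by -0.74 (adjusted p 0.0426) and Mto1, a mitochondrial tRNA modifier, by -0.60 (adjusted p 0.132). At cXENp1 against ESC, Ooep changed by -3.09 and Dppa5a by -3.03, whereas Ddx43 differed by -0.58 (adjusted p 0.437).

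**Figure D5:**
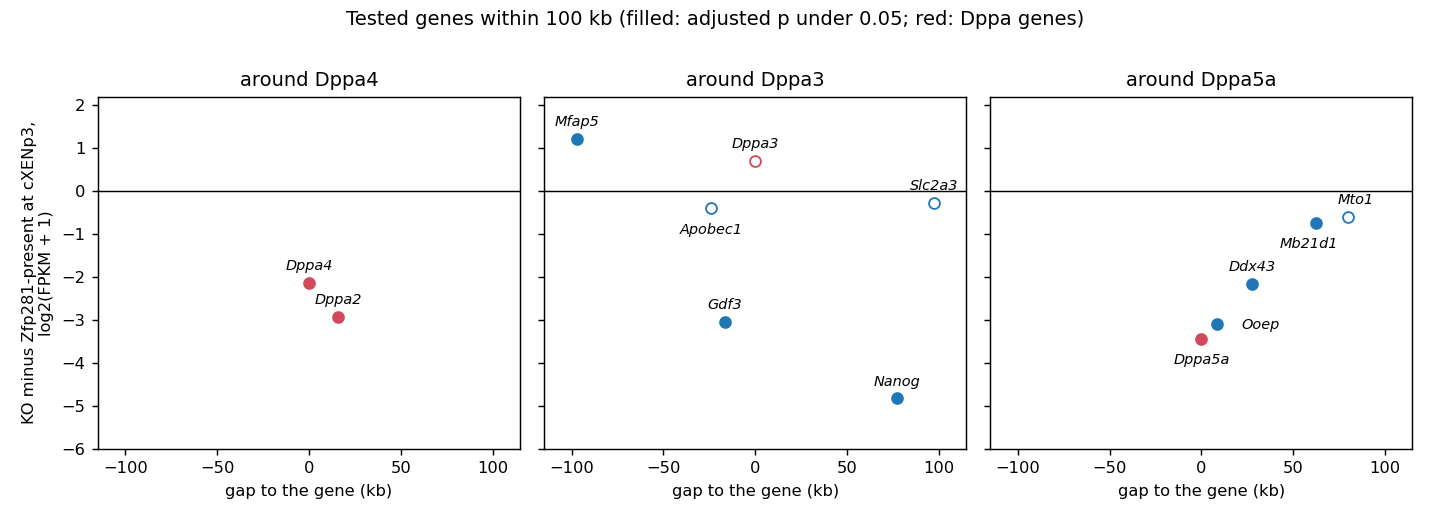
KO minus Zfp281-present lines at cXENp3 in log2(FPKM + 1) for tested genes within 100 kb of Dppa4, Dppa3 and Dppa5a, against the gap to that gene in kb; filled points have a limma adjusted p under 0.05 and Dppa genes are red. Dppa3 at 0.70 is open, between Gdf3 at -3.05 and Nanog at -4.82.

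Profiles over the 14 libraries were compared by Pearson's r of log2(FPKM + 1), as a description over libraries that share lines. Dppa4 and Dppa5a were the most alike pair, with r of 0.96 over 14 libraries and 0.89 over the 12 of the course. Dppa2 and Dppa4, the neighbours and partners, had 0.87 over 14 but 0.51 over 12, and Dppa2 and Dppa5a had 0.75 and 0.18, so the XEN lines carried much of both values. Dppa3 had r of 0.56 with Dppa5a, 0.38 with Dppa4 and 0.02 with Dppa2, and -0.47 with Dppa2 over the course.

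Among 13385 genes, Dppa5a was the fifth most like Dppa4, and Dppa4 the sixth most like Dppa5a. The gene most like Dppa4 was 2610305D13Rik (r 0.97), followed by Plcb4, Spire2, Prdx1 and Dppa5a (0.97 to 0.96). The genes most like Dppa5a were 2610305D13Rik (0.97), Gm4636, Hmga1, Them6 and Tcf20 (0.97 to 0.96). For Dppa2 they include Zfp936, Zfp69, Tcfl5 and Mapk6, at 0.94 to 0.93. For Dppa3 they were Cnga3 at 0.93, then Trp73, Dclre1c, Brd1 and Gstm3 at 0.90 to 0.87; Cnga3 and Trp73 do not exceed 2.39 and 2.44 FPKM in any library. By Spearman's rho the gene ranked highest by r was at rank 12 for Dppa4, 13 for Dppa3 and 138 for Dppa5a, so the order within these lists depends on the measure.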

How the data were processed

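PolyA RNA libraries, 14 in all, are given in 1 table of FPKM that the authors deposited, with gene loci as rows. The submitters' processing notes name STAR 2.5.3, Cufflinks 2.1.1 and the build mm9, without their roles; the annotation and filters are not given in the sources used here. The unit was read from the values and the locus identifiers. The table holds no counts, so depth and counting error are unknown. All fits used log2(FPKM + 1), a scale on which changes of low genes come out too small. Genes with 1 FPKM or more in at least 2 fitted libraries were fitted over the whole table with limma 3.58.1 (lmFit, eBayes with trend) in R 4.3.3, and a gene was called where its p, adjusted by Benjamini-Hochberg, was under 0.05 within each of 12 comparisons; the fits were tested on simulated data. An alternative added after the data were seen scaled every library to the same sum.

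Stage comparisons used the cell line as a block, because the same line gave each stage; this is where the pairing comes from. KO comparisons within a stage, and interactions, pooled the spread of 6 groups of 2 libraries, with no block; KO against XEN used 7 groups. The second knockout line is named 2.6 as in its titles, although its cell line field reads otherwise. The members and the 10 gene lists were chosen with earlier results of these data known. Genes named are the members, up to 4 of each list with large changes in the comparison described (Uhrf1 and Dnmt1 for their known tie to Dppa3), the 5 most like each member (1 gene that this rule selects is not reported here), and rows within 100 kb; Dux and the Zscan4 sum were added after their values were seen. Low members passed the filter in 6 (Dppa3) to 13 (Dppa5a) libraries.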

Additional observations from a re-analysis of the deposited data

Results flagged for a closer look

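Dppa2, Dppa4 and Dppa5a stood out because the 2 genotype classes changed in different ways over the course. The interaction of Zfp281 with cXENp3, relative to ESC, was called for all 3, at -3.51 for Dppa2, -2.80 for Dppa4 and -4.14 for Dppa5a (limma). In the same comparison 22.6% of all genes were called, and the members' calls depended on which lines were included, as given above. For Dppa2 and Dppa4 both Zfp281-present lines were higher at cXENp3 than in ESCs and both KO lines lower, and the differences of these changes, -3.51 and -2.80, are the ones the interaction tested. From cXENp1 to cXENp3 the 3 genes were higher in 3WT and 3.34Null-Rescue and lower in 3.34Null and 2.6Null, with a difference between the class means of -4.40 for Dppa2, -2.50 for Dppa4 and -4.56 for Dppa5a on the log2(FPKM + 1) scale; these were not tested. Each class is 2 lines, and 3.34Null and 3.34Null-Rescue derive from the same knockout line. By Dixon's criterion at the 95% level, which sets the gap to the nearest library against the range of the 4, no library stood apart from the others of its stage on the log2(FPKM + 1) scale used in the fits, but 4 of 12 groups had one on the FPKM scale. They were Dppa2 and Dppa4 in ESCs, where 2.6Null was the highest (0.849 and 0.854), and Dppa3 at cXENp1 and cXENp3, where 3.34Null was the highest (0.843 and 0.849). Chance gives such a gap in about 5% of groups, and the XEN stage, with 2 libraries, was not examined.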

How the results depend on the processing

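Across the alternatives, single-member results kept their direction and side of the threshold in 476 cases, lost a call in 41, gained one in 6 and changed sign in 29; causes were not tested. Members called at cXENp1 against ESC were 2, but 1 with any value above 0, with a mean of at least 5 FPKM (where Dppa3 is not tested) or with quantile normalization, 0 with the prefix as a term, and 1 to 2 when a line was left out. At cXENp3 against ESC the count of 1 was 0 with any value above 0, with the mean filter, with the prefix or with no replicate block, and 0 to 1 with a line left out. Leaving out a line gave 0 to 1 in KO against Zfp281-present ESCs, 0 to 3 at cXENp3 and in the cXENp3 interaction, 1 to 3 in KO lines, 0 to 1 in Zfp281-present lines and 1 to 3 in KO cXENp3 against XEN. Where a line was left out of a pair, the lone library was assumed to vary like the other groups. The line block changed no other call.

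With the prefix as a term, signs turned for Dppa2 at cXENp1 (-0.14) and cXENp3 (-1.85) against ESC, Dppa2 (-0.30) and Dppa3 (0.45) in KO ESCs, Dppa3 (-0.055) and Dppa4 (0.18) in the cXENp1 interaction, and Dppa2 (-0.72) and Dppa4 (-1.01) in Zfp281-present lines. From cXENp1 to cXENp3, Dppa4 was -0.00038 with a pseudocount of 0.1, -0.18 after quantile normalization and -0.20 with equal library sums, and Dppa5a -0.034 after quantile normalization.

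With a line left out, Dppa2 at cXENp3 against ESC ran from -0.54 to 1.19, Dppa4 from -0.64 to 0.53 and Dppa5a from -0.75 to 1.43 between cXENp1 and cXENp3. In KO ESCs Dppa2 ran from -0.30 to 1.48 and Dppa3 from -1.76 to 0.45. In KO at cXENp1 Dppa4 ran from -0.11 to 0.83 and Dppa3 from -0.11 to 0.90, and Dppa3 at cXENp3 from -0.41 to 1.81. In the cXENp1 interaction Dppa2 ran from -0.18 to 1.94, Dppa4 from -0.94 to 0.35 and Dppa5a from -0.13 to 0.96, and Dppa5a in Zfp281-present lines from -1.15 to 0.0048. Equal library sums, chosen after seeing the data, raised the share of calls that were higher at cXENp1 from 51.4% to 84.5%.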
